A study of Homo sapiens with 2 samples.

Results

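The genes described here are the single-exon transcripts of GM12878 cells: those listed with 1 exon only and 20 or more windows, whose scaled coverage in the input averaged 1 or more. They number 330 genes and 16558 windows, among 47352 gene names and 1983959 windows in the longest listings. Of 6717 gene names listed with a single exon, 2016 had 20 or more windows, and 330 of these also reached the input minimum. The rule used the exon count, the length and the input coverage, so input levels are given as a description, and the rule did not use the immunoprecipitated (IP) signal.

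The study compared 1 m6A IP library with 1 input library of fragmented RNA from untreated GM12878 cells, a human lymphoblastoid B cell line. The RNA was total RNA, recovered with TRIZOL and silica columns, and libraries kept the strand by dUTP marking. Both samples share the same culture label, with no genetic change and no agent named, and a source label on both names embryonic stem cells of mouse. All 6 B cell markers were measured in the input, with levels from 9.93 to 775, and none of 5 pluripotency markers was, the highest being SOX2 at 0.153, itself a single-exon gene of 51 windows. Of the other markers checked, 1 of 4 for T cells, 1 of 3 for myeloid cells, 1 of 3 for fibroblasts and 0 of 3 for erythroid cells reached the minimum. With 1 library a side there is no replicate error and no test was possible, so folds below compare these libraries, not conditions.

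N6-methyladenosine (m6A) is placed on messenger RNA by a nuclear complex around METTL3 and METTL14, and is read by YTH domain proteins that influence splicing, export, translation and decay. In spliced genes the mark is known to be dense in long internal exons and in the last exon near the stop codon, and sparse close to splice junctions, where exon junction complexes are deposited. A transcript with a single exon has no splice junction and receives no exon junction complex from splicing. Many such human genes are retrogenes, made from a spliced messenger RNA copied back into the genome. Others are histones, receptors coupled to G proteins and immediate early regulators such as JUN.

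The windows were 100 nt long and placed every 50 nt. A scaled coverage of 1 equalled 10 reads in a window of the IP and 15.8 reads in a window of the input. The deposited window score takes IP and input each relative to their own gene medians, with 1 added throughout, and gives the log2 of the IP value divided by the input value. A window was enriched at a score of 2, which is 4-fold, and a region was at least 2 enriched windows in a row. The gene-level score is the highest mean score of 2 neighbouring windows. The gene-wide log2 ratio compares the gene medians of IP and input, again with 1 added. It is the quantity that the window score divides out.

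By their RefSeq class the genes comprised 141 protein-coding genes, 91 pseudogenes, 18 long non-coding RNAs, 6 mitochondrially encoded genes and 74 names that matched no RefSeq entry, 69 of them named after genomic clones. Names matched by symbol in 193 cases, by an older symbol in 36 and by gene ID in 21. Mean input coverage had a median of 3.30 and reached 5764, and the genes held between 20 and 187 windows. For 311 genes the table has a single listing. Of the 19 with several, 17 also have a shorter listing with more than 1 exon, CXCR4, GPX1, CREBZF, ITPRIPL1 and ITPRIPL2 among them. F8A2 and F8A3, copies of one coding sequence, shared all 19 windows that could be compared, so their values are not separate measurements. RefSeq places them on opposite strands although their windows run in the same order here, so their 5′ to 3′ direction is uncertain. LOC647979 (NORAD, a long non-coding RNA that binds PUMILIO proteins) and the clone entry RP4-550H1.6 both had 107 windows, mean IP 16.8 and mean input 5.16.

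An enriched region was found in 142 of 330 single-exon genes, which is 43.0% (95% exact interval 37.6 to 48.6), against 44.2% of the 10756 measured genes. Taken as a whole they therefore lay near the background. The pooled share of multi-exon genes of 20 or more windows was 50.8%, but these had a median of 63 windows, against 39.5 for the single-exon genes. Within bins of length the order was not kept. The shares were 24.8% of single-exon and 23.8% of multi-exon genes at 20 to 39 windows, 54.2% and 47.3% at 40 to 79, and 78.7% and 71.0% at 80 or more. The classes within them stood far apart. Protein-coding single-exon genes had a region in 102 of 141 cases, or 72.3% (64.2 to 79.5), against 51.5% of 8254 multi-exon protein-coding genes. Single-exon pseudogenes had one in 14 of 91 cases, or 15.4% (8.67 to 24.5), against 60 of 151 multi-exon pseudogenes, or 39.7% (31.9 to 48.0). Here too length differed, with medians of 31 windows in single-exon and 44 in multi-exon pseudogenes. At 20 to 39 windows the shares were 4.84% (1.01 to 13.5) of 62 single-exon and 13.6% (6.04 to 24.98) of 59 multi-exon pseudogenes, and at 40 to 79 windows 9 of 25 single-exon (17.97 to 57.5%) and 36 of 68 multi-exon pseudogenes (40.5 to 65.2%). Within either bin these intervals overlap. The single-exon share was 37.9% at 40 or more windows and 30.8% with a pseudocount of 0.1. Long non-coding RNAs had one in 10 of 18 cases, unmatched names in 16 of 74, and mitochondrially encoded genes in 0 of 6. These intervals treat genes as independent draws and hold no error between libraries.

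The median gene-level score was 2.98 over the protein-coding single-exon genes (95% order-statistic interval 2.69 to 3.29), against 2.15 over multi-exon protein-coding genes (2.10 to 2.20). Over the single-exon pseudogenes it was 1.05 (0.77 to 1.27), against 1.46 over multi-exon pseudogenes (1.30 to 1.97). Windows at or above a score of 2 made up 7.63% of all windows of single-exon genes, against 5.75% of the windows of measured genes. At the other end, 259 windows (1.56%) of single-exon genes scored -2 or less, against 0.329% of the windows of measured genes. In measured genes of 20 or more windows listed with 2 exons both shares were higher, at 9.92% and 1.79%. Of these 259 windows, 232 were in protein-coding genes. A low score is relative to the gene medians and need not mean less IP than input. In SDHAF1 the window at 250 nt from the 5′ end had 5.58 in the IP and 3.96 in the input, and scored -3.27.

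The gap between protein-coding single-exon and multi-exon genes was present in each bin of length and of input compared. Among genes of 20 to 39 windows a region was found in 63.3% of 49 single-exon genes, against 23.2% of 1622 multi-exon genes. At 40 to 79 windows the shares were 69.4% of 62 single-exon genes and 47.1% of 3545 multi-exon genes. At 80 or more windows they were 93.3% of 30 single-exon genes and 71.3% of 3087 multi-exon genes. The gap was therefore widest for the shortest transcripts. By mean input, regions were found in 77.8% of single-exon against 56.1% of multi-exon genes at 1 to 2, in 76.4% against 58.1% at 2 to 5, and in 64.0% against 41.9% at 5 or more. Protein-coding genes listed with 2 exons came close to the single-exon ones, with a region in 206 of 294, or 70.1% (64.5 to 75.2).

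**Figure D1:**
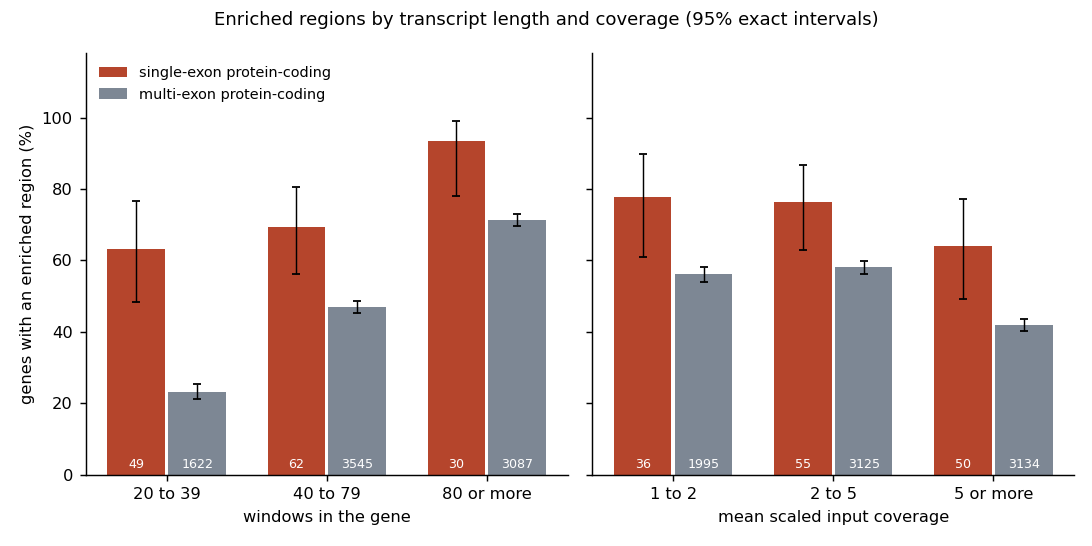
Share of protein-coding genes with an enriched region (y axis, percent) by number of windows (left) and by mean scaled input coverage (right), with single-exon genes left of multi-exon genes in each pair, gene numbers inside the bars and 95% exact binomial intervals. The single-exon bars are the higher in all 6 pairs, by the widest margin at 20 to 39 windows (63.3% against 23.2%).

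The rule's limits were also looked at from both sides. Of 29 genes with 20 to 22 windows 3 had a region, and of 15 genes just too short, with 17 to 19 windows, 0 had one. Of 36 genes with a mean input of 1 to 1.2, 14 had a region, and of 38 genes just below, at 0.8 to 1, 19 had one.

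Besides local enrichment, protein-coding single-exon genes had a higher median window in the IP, most of all the shorter ones. Their median gene-wide log2 ratio was 1.12 (0.85 to 1.27), against -0.14 (-0.15 to -0.13) for multi-exon protein-coding genes. A gene-wide log2 ratio of 1 or more was found for 76 of 141 protein-coding single-exon genes (53.9%), against 7.66% of measured genes. The ratio was lower in longer genes, but with 1 added it is drawn toward 0 where the medians are low. Among protein-coding single-exon genes with a known strand, 89.1% of windows had an input of at least 1 at 20 to 39 windows. At 80 or more windows 62.4% did. How far this lowers the ratio of long genes was not tested. The median gene-wide log2 ratio was 1.48 (1.12 to 1.69) in single-exon against -0.10 in multi-exon genes at 20 to 39 windows. It was 1.19 (0.83 to 1.50) against -0.13 at 40 to 79. At 80 or more windows it was only 0.18 (-0.01 to 0.68) in single-exon against -0.18 in multi-exon genes, and 8 of 30 single-exon genes reached 1. Genes with 2 exons stood between over all lengths, at 41.5% of 294. Single-exon pseudogenes had a median gene-wide log2 ratio of -0.02 and reached 1 in 9 of 91 cases.

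Because the window score divides this gene-wide part out, several transcripts with a high IP level throughout have no region. With scores taken without the gene medians, 121 of 141 protein-coding single-exon genes (85.8%) had a region, against 51.2% of multi-exon protein-coding genes and 45.5% of measured genes. Among all 330 genes, 32 had a region only without the medians and 1 only with them. In 15 of the 141 protein-coding genes (10.6%) at least 50% of windows were then enriched, against 0.727% of multi-exon protein-coding genes.

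**Figure D2:**
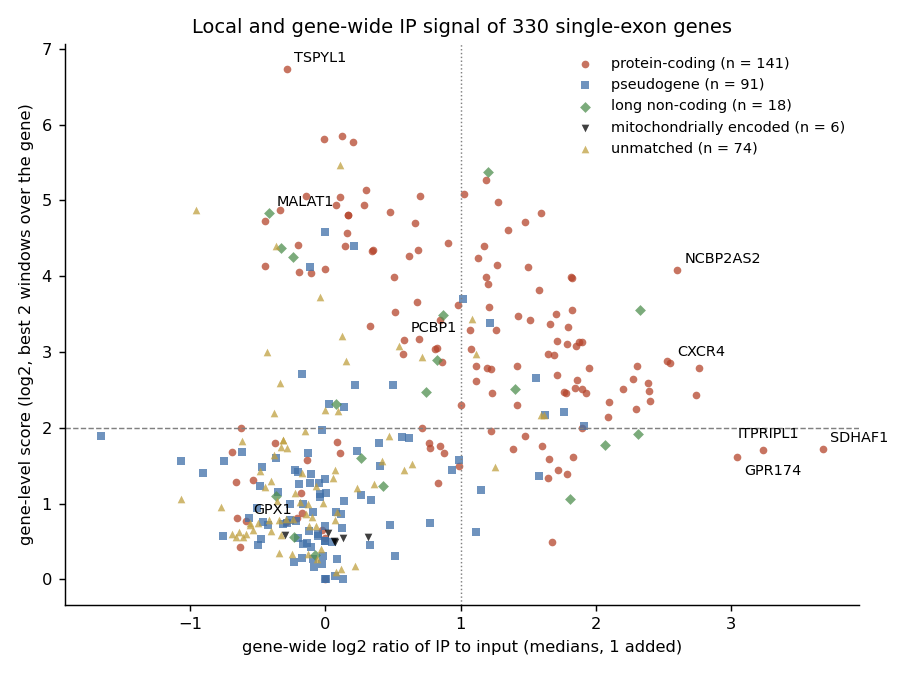
Gene-level score (y axis, log2) against the gene-wide log2 ratio (x axis) for the 330 single-exon genes, 1 point per gene, by RefSeq class; the dashed line marks a score of 2 and the dotted line a gene-wide ratio of 1. Protein-coding genes fill the upper and right parts, SDHAF1 lies far right but below the dashed line, and most pseudogenes sit near a gene-wide ratio of 0.

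The highest gene-level scores belonged mostly to long protein-coding transcripts. TSPYL1, an autosomal member of the nucleosome assembly protein family, led with a score of 6.73. Its strongest window had a coverage of 574 in the IP and 5.61 in the input, a ratio of 102 (95% interval 82.6 to 127, counting error only). Its IP signal stood in separate blocks, with 258 in the IP against 12.0 in the input at 1150 nt from the 5′ end and the maximum at 2000 nt. TSPYL4, its relative, had 339.5 in the IP and 3.52 in the input at its strongest window, a score of 5.09 and 4 regions.

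HEXIM1, which inhibits the elongation factor P-TEFb together with 7SK RNA, had a score of 5.77. Its peak at 2950 nt had 672 in the IP and 8.92 in the input, and an upstream block reached 283 in the IP against 14.9 in the input at 1600 nt. CREBZF, a basic leucine zipper factor that binds HCF-1, had 485 in the IP and 6.96 in the input at its strongest window, and a score of 5.81. ITPRIPL2 had 161 in the IP and 1.25 in the input there, and a score of 5.85. With 1 added, IP and input were nearly equal at the median window in both. The gene-wide log2 ratio was -0.01 in CREBZF and 0.12 in ITPRIPL2.

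MARS2, the mitochondrial methionyl-tRNA synthetase, had 438 in the IP and 3.52 in the input at its strongest window, and 29.0% of its 62 windows were enriched. CHMP1B, a subunit of the membrane-cutting ESCRT-III complex, had 432 in the IP and 7.50 in the input, and a score of 5.14. KLHL9, a substrate adaptor of cullin 3 ubiquitin ligases, had the highest IP coverage of these at a strongest window, 811, against 8.47 in the input. EPM2AIP1, which binds the glycogen phosphatase laforin, held the longest region among the single-exon genes, 35 windows in a row. PNMA1 (score 5.05), TMEM185B (5.04), RBM15B (4.94) and ADO (4.93) completed the protein-coding genes at the top. RBM15B is itself a partner of the m6A writer complex, and ADO is a cysteamine dioxygenase.

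Entries not matched to a protein-coding gene also reached the top 15. LOC400027 (LINC00938), a long non-coding RNA, had 325 in the IP and 2.18 in the input at its strongest window, and a score of 5.37. The clone-named entry CTD-2228K2.7, which matched no RefSeq gene, scored 5.46 and had the largest enriched share of all, 35.7% of 56 windows. Large shares were also found for TMEM203 (31.3%), an endoplasmic reticulum membrane protein, TBCC (29.4%), a tubulin folding cofactor, and RPP25 (27.7%), a subunit of RNase P. CHML, a Rab escort protein, had 27.5% of its windows enriched and the clone-named RP11-876N24.5 29.2% of 24.

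**Figure D3:**
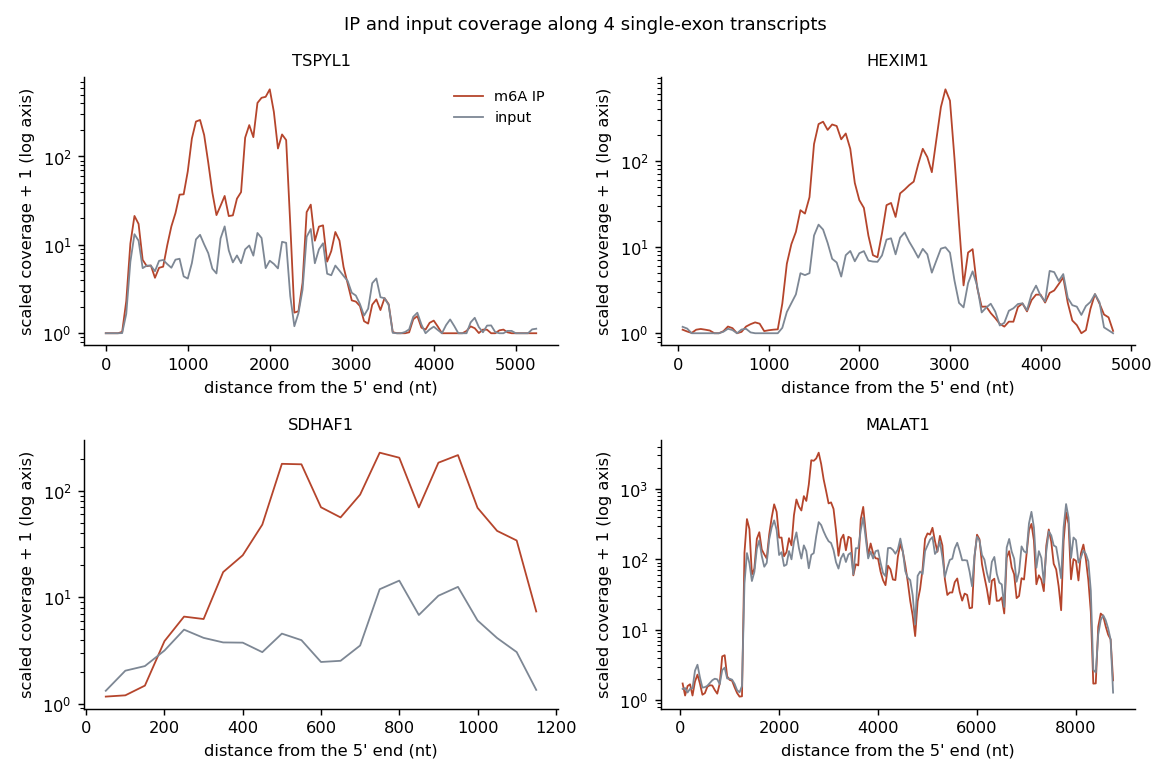
Scaled coverage plus 1 (y axis, log scale) by window along TSPYL1, HEXIM1, SDHAF1 and MALAT1 (x axis, distance of the window from the 5′ end in nt), with the m6A IP in red and the input in grey. IP stands above input in blocks in TSPYL1 and HEXIM1 and around 2650 nt in MALAT1, where it is 2568 against 115, and from about 350 nt to the 3′ end in SDHAF1.

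The transcripts with the largest gene-wide ratios were mostly short. SDHAF1, an assembly factor of succinate dehydrogenase in mitochondria, had a median coverage of 47.2 in the IP and 2.76 in the input, a gene-wide log2 ratio of 3.68. Without the gene medians 73.9% of its 23 windows were enriched, but its gene-level score was 1.72 and it had no region. ITPRIPL1 had medians of 27.7 in the IP and 2.04 in the input, a gene-wide ratio of 3.24 and no region. GPR174, a receptor for lysophosphatidylserine on lymphocytes, had medians of 19.8 in the IP and 1.52 in the input, a gene-wide ratio of 3.05 and no region. These 3 genes had the highest gene-wide ratios of all 330, and each was missed by the region call.

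The next 5 had both kinds of signal. HPS6, a subunit of the lysosome biogenesis complex BLOC-2, had a gene-wide log2 ratio of 2.77 and a gene-level score of 2.79. KTI12, a chromatin-associated relative of a yeast Elongator factor, had a gene-wide ratio of 2.74 and a score of 2.44. LOC152217 (NCBP2AS2), which encodes a small protein, had a gene-wide ratio of 2.60 and a score of 4.08, with 1288 in the IP and 10.4 in the input at its strongest window. CXCR4, the receptor for the chemokine CXCL12, had a gene-wide ratio of 2.55 and a score of 2.86, with median coverages of 140.3 in the IP and 23.2 in the input. RSC1A1, named as a regulator of solute carriers, had a gene-wide ratio of 2.53 and a score of 2.88.

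Families were described from lists of gene names, each set against the 44.2% of measured genes with a region. Of the 35 list genes with a region, 33 were protein-coding, and their class share is the closer comparison. Among all protein-coding single-exon genes 102 of 141 (72.3%) had a region. For lists with regions in all or most genes, the 95% exact intervals include this share. So do those of the heat shock and histone lists, 0.63 to 80.6% each, with a region in 1 of 4 genes. The interval of the ubiquitin list, 0 of 5 genes (0 to 52.2%), includes the 44.2% but not the class share. That list also holds a pseudogene. Whether a family differs from its class at like length was not tested. All 3 AP-1 genes measured, JUN, JUNB and JUND, had a region. JUN scored highest at 4.43, with 187 in the IP and 3.28 in the input at its strongest window. JUNB had the highest level, with a mean of 304 in the IP and 38.3 in the input and a score of 2.98. JUND followed at 2.96. IER5, the 1 immediate early gene of its list that was measured, had 970.0 in the IP and 21.0 in the input at its strongest window, and a score of 3.56.

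Among developmental factors SOX12 (4.35), FOXO3B (4.35) and SOX4 (2.45) had regions, 3 of 3 measured of 38 long single-exon genes in that list. SOX4, a factor of B cell progenitors and other lineages, had 3 regions and 17 windows at a score of -2 or less, which is relative to its gene medians. Those medians were 34.2 in the IP and 9.25 in the input. FOXO3B is a copy of FOXO3, and its strongest window had 43.3 in the IP and 0.394 in the input. That input amounts to 6 reads, so the ratio of 110 has a wide interval (51.9 to 312, counting error only). How reads that match both FOXO3B and FOXO3 were assigned was not tested. Of the zinc finger and BTB genes 3 of 4 had a region. The highest was ZNF238 (ZBTB18, a transcriptional repressor) at 4.70, then ZNF865 at 4.14, and the lowest was ZNF580 at 1.67 with none. The adaptors KLHL9 (4.98), KCTD11 (3.43) and KBTBD7 (3.32) gave 3 of 3, and the small GTPases RAP2B (4.06) and RHOB (3.03) gave 2 of 2.

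Proteins that bind nucleic acid gave 4 of 5. PURA (4.87), PURB (4.14) and RBM15B (4.94) had regions on long transcripts, with a run of 33 windows in PURB. PCBP1, which binds C-rich RNA, had the highest mean of them, 485 in the IP and 112 in the input, and a score of 3.16. PABPC3, a copy of the poly(A)-binding protein gene, had 56.3 in the IP and 59.2 in the input and no region. The 3 MAGE family genes had regions, led by NDNL2 (NSMCE3, a subunit of the SMC5/6 complex) at 4.24, then MAGEH1 at 3.42 and MAGEF1 at 2.46. Retrotransposon-derived genes gave 4 of 5, from PNMA1 (5.05) and ZCCHC3 (3.99) to FAM127A (RTL8C, 1.90), which had none.

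Receptors coupled to G proteins had a region in 3 of 6 cases, but all 6 had a gene-wide log2 ratio above 1, from 1.07 to 3.05. A ratio of 1 or more was also found for 53.9% of all protein-coding single-exon genes. It was found for 67.3% of the 49 with 20 to 39 windows, and the receptors held 20 to 38. S1PR4, a receptor for sphingosine 1-phosphate on lymphocytes, scored 3.29, and GPR15, a homing receptor of lymphocytes, scored 3.13 with 1023 in the IP and 28.5 in the input at its strongest window. OR2T3, an olfactory receptor gene, was the lowest at 1.44, with a mean of 21.4 in the IP and 4.68 in the input. Of 233 receptor genes listed with a single exon and 20 or more windows, only these 6 reached the input minimum.

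Some families had few or no regions, though the intervals of the heat shock and histone lists include the share of protein-coding single-exon genes. Of 4 heat shock genes DNAJC30 had one, at 2.98, while the inducible chaperone genes HSPA1A (1.80), HSPA6 (1.61) and HSPA1B (1.50) had none. HSPA1A and HSPA1B are near-identical, so their reads cannot be told apart with certainty. The ubiquitin list gave 0 of 5, from RNF26, just under 2 with 1 enriched window, and UBQLN2 at 1.95 to the pseudogene RNF126P1 at 0.48. Of these 5 genes, 4 had a gene-wide log2 ratio above 1, and 53.9% of all protein-coding single-exon genes reached 1. Of 4 histone genes H2AFX (H2AX, the histone phosphorylated at DNA breaks) had a region, with a score of 2.78 and 269 in the IP against 7.30 in the input. HIST2H2BE (H2BC21) at 1.73, H1FX (H1-10) at 1.67 and H3F3C (H3-5) at 0.43 had none. SLC7A5P2, a pseudogene, was the 1 solute carrier name measured and had no region, and 0 of 20 long single-exon protocadherin genes reached the input minimum.

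The nuclear long non-coding RNAs MALAT1 and NEAT1 both had regions. MALAT1 had a mean of 219 in the IP and 112 in the input, and its 2 regions lay in the 5′ part of the transcript. The peak window of MALAT1, 2650 nt from the 5′ end, had 2568 in the IP and 115 in the input, a ratio of 22.3 (21.3 to 23.4). At the median window of MALAT1 the IP was 76.2 and the input 102, a gene-wide log2 ratio of -0.42. NEAT1, a long non-coding RNA of paraspeckles listed here with 75 windows, had a score of 2.89. Its strongest window had 897 in the IP and 67.1 in the input. LOC647979 (NORAD), named here after its values were seen, scored 4.38 with 108 in the IP and 5.08 in the input.

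Mitochondrially encoded transcripts carried very high input and no region. MT-CO1, a cytochrome c oxidase subunit, had a mean of 5101 in the IP and 5764 in the input, and a gene-level score of 0.58. The respiratory complex I subunit MT-ND4 had 3737 in the IP and 3123 in the input, MT-ND1 had 1932 in the IP and 1789.6 in the input, and MT-ND2 had 2032 in the IP and 1600.1 in the input. MT-CYB, cytochrome b, had 1817 in the IP and 1681 in the input. Scores of the 6 mitochondrial genes ran only from 0.49 to 0.61. Of 2 clone-named entries with inputs as high, one had 3866 in the IP and 5240.2 in the input, the other 3691 in the IP and 5543 in the input, and neither had a region. Depth was high for all of them, since the lowest mean input among the 6 mitochondrial genes was 1525.

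Nuclear protein-coding genes with the lowest scores at a mean input of 5 or more were largely copies of other genes. H3F3C had 11.4 in the IP and 16.2 in the input, EIF5AL1 had 29.0 in the IP and 33.3 in the input, and LOC649330 (HNRNPCL3) had 24.0 in the IP and 19.4 in the input. CSNK2A1P (CSNK2A3) had 13.1 in the IP and 13.7 in the input, and GLUD2, a glutamate dehydrogenase, had 4.36 and 7.03. All of these scored under 1 and had no enriched window. EIF5AL1 had a median of 0 in both libraries, so its signal came from a smaller part of its 77 windows. GPX1, a glutathione peroxidase and no copy, had 60.3 in the IP and 73.2 in the input and a score of 0.77. RNF113A, a spliceosomal protein, scored 1.33 but had a gene-wide log2 ratio of 1.65.

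Single-exon pseudogenes could be set beside the multi-exon genes they copy where the names pair them, which gave 68 pairs with 63 parents. A region was found in 8 copies and in 19 of the pairs' parents. Both partners had one in 5 pairs, only the parent in 14, only the copy in 3 and neither in 46. The median gene-level score was 1.07 for the copies and 1.43 for their parents, and the copy scored below its parent in 52 pairs. Median input was 3.77 in the copies and 11.7 in the parents. The pairs were not matched by length, and the score is a maximum over windows. All single-exon pseudogenes had a median of 31 windows, and all multi-exon protein-coding genes 65. In the latter the median score was 1.27 at 20 to 39 windows and 3.10 at 80 or more. How far length sets the lower scores of the copies was not tested. How reads that match both a copy and its parent were assigned was not tested.

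BASP1P1 was the highest of these copies, at 4.58 with 171 in the IP and 5.86 in the input, against 3.12 for BASP1, a neuronal membrane protein gene. LOC643387, a copy of TARDBP, scored 2.57 against 4.19 for its parent, which encodes the RNA-binding protein TDP-43. SLC7A5P2 scored 0.99 against 5.33 for SLC7A5, a large neutral amino acid transporter gene. In PDIA3P and TPI1P2 the region rested on windows with an input of 0.313 and 0.194, far below their mean input of 30.3 and 11.8. The copies named in these sentences were chosen after their values were seen.

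Protein-coding copies picked by hand after their values were seen went both ways. CSTF2T, a germline variant of a cleavage stimulation factor subunit, scored 4.39 with 2 regions, against 1.30 with none for its spliced relative CSTF2. RANBP6, an importin, scored 2.81 with 2 regions, against 1.81 with none for IPO5. CHML scored 4.09, against 2.87 for CHM, whose own mean input of 0.737 lay under the minimum. GLUD2, PABPC3, H3F3C, EIF5AL1, CSNK2A1P, FKBP1C, PGAM4 and CSNK1A1L had no region.

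**Figure D4:**
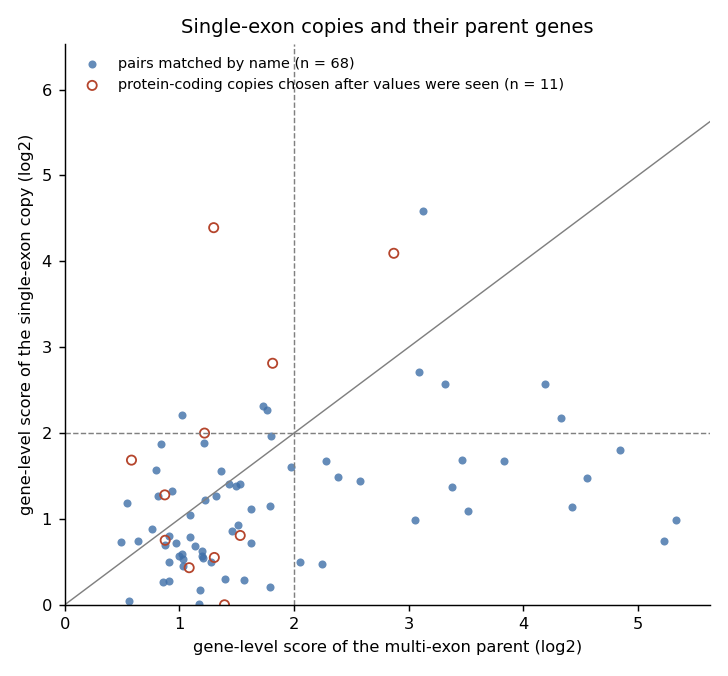
Gene-level score of single-exon copies (y axis, log2) against that of their multi-exon parents (x axis, log2), 1 point per pair, with name-matched pseudogene pairs filled and 11 protein-coding pairs chosen after their values were seen as open rings; dashed lines mark a score of 2 and the solid line equality. Of the filled points 52 of 68 lie below equality, and pairs were not matched by length.

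Over the single-exon genes 209 regions were found, 1 in 93 genes, 2 in 34 and 3 or more in 15. A region held a median of 4 windows. Peak windows had a median IP coverage of 93.6 and a median input coverage of 3.56, or 939 reads in the IP and 56 in the input. In 12 of the 209 regions the peak window had an input below 1, where few reads carry the ratio. Overlap with other genes moved the share little among protein-coding genes, with a region in 36 of 47 that overlap another RefSeq gene (76.6%) and in 66 of 94 that do not (70.2%). Libraries kept the strand, but whether the windows were counted by strand is not given in the sources used here.

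Position along the transcript could be read for 126 single-exon genes with a known strand, 113 of them protein-coding. The table numbers exons in genome order: the first listed exon was longer than the last in 7.18% of 3620 plus-strand genes and in 90.5% of 3399 minus-strand genes, so minus-strand genes were turned round. Enriched windows of single-exon protein-coding genes were rare in the first of 10 equal parts (6.88%), most frequent in the third (27.7%) and rare again in the last (3.48%). Over all 126 oriented genes the third part was highest on both strands, but the shapes differed. The first part held 3.23% on the plus and 11.5% on the minus strand. The third held 19.7% (15.9 to 23.9) and 32.9% (28.1 to 37.9), and the sixth 14.0% and 7.49%. In multi-exon protein-coding genes the profile was flatter, with 2.97% in the first part, at most 7.27% in the fifth and 3.99% in the last. The shape depended on the input. Among windows of single-exon genes with an input of at least 5 and no less than the gene median, the shares were 13.9% in the first part, 32.3% in the second, 22.3% in the third and 15.8% (7.48 to 27.9) in the last. With each gene counted equally the third part held 17.2%. Of all enriched windows, 67.8% (64.6 to 70.9) lay upstream of the midpoint in single-exon genes, against 50.6% in multi-exon genes. Without F8A2 and F8A3 the single-exon share was 68.0%. At the higher input minimum 62.3% of enriched windows lay upstream in single-exon genes, but so did 60.2% of all their windows that passed it, so the pooled skew was nearly that of the covered windows.

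This pooled skew hid opposite patterns by length. In single-exon genes of 20 to 39 windows only 22% (15.7 to 29.5) of enriched windows lay upstream of the midpoint, against 21.4% in multi-exon genes. At 40 to 79 windows the shares were 55.1% (48.2 to 61.9) in single-exon and 38.6% in multi-exon genes. At 80 or more windows they were 86.6% (83.3 to 89.5) in single-exon and 57.6% in multi-exon genes. These intervals treat overlapping neighbours as independent, and the 508 enriched windows of the long single-exon genes came from 26 genes. With each gene counted equally, the shares from short to long were 27.6%, 55.5% and 77.8% in single-exon genes. In multi-exon genes they were 23.2%, 36.7% and 55.5%. The strongest region peaked at a median of 1050 nt from the 5′ end and 600 nt from the 3′ end in the short genes, at 1550 and 1400 nt in the middle ones, and at 1800 and 3225 nt in the long ones. Distances from both ends are bounded by the transcript's own length, so part of this order is fixed.

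Input coverage moved with position too. In the single-exon protein-coding genes the median input was 3.14 in the third part and 0.913 in the last. In those of 80 or more windows 74.2% of windows upstream of the midpoint had an input of at least 1, and 50.7% of those downstream. The plot of TSPYL1 coverage shows this, with an input below 1 in every window beyond 3500 nt of its 5300 nt. Where the input reached 1, 35.1% (32.3 to 37.9) upstream and 8.07% (6.25 to 10.2) downstream of the midpoint were enriched in the long single-exon genes. At the higher minimum, an input of 5 and the gene median, the gap in the long genes was narrower and the intervals overlapped, with 39.9% (34.4 to 45.6) upstream and 28.3% (19.7 to 38.2) downstream. How far input coverage sets the skew of the long genes was not tested further. In the short genes the shares were 6.50% upstream and 21.1% downstream at an input of 1, and 12.0% (8.02 to 17.1) and 27.5% (22.1 to 33.6) at the higher minimum. Genes with a mean input of 5 or more, which had a median of 36 windows, had 37.4% (30.2 to 45.0) of enriched windows upstream, and with each gene counted equally the pooled share was 52.6% in single-exon genes and 45.0% in multi-exon genes.

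**Figure D5:**
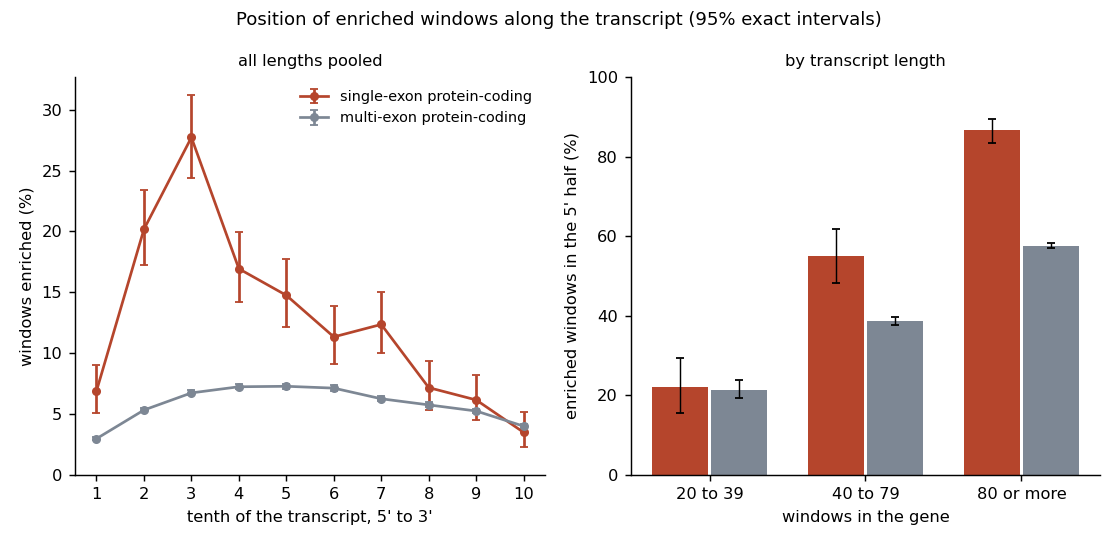
Left, share of windows enriched (y axis, percent) in each of 10 equal parts of the transcript from 5′ to 3′ (x axis) for single-exon (red) and multi-exon (grey) protein-coding genes; right, share of enriched windows that lie upstream of the midpoint by number of windows, single-exon left of multi-exon. Bars are 95% exact binomial intervals over windows, and overlapping neighbours are not independent; the single-exon share is 22% in short and 86.6% in long genes, and neither panel sets an input minimum for windows.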

How the data were processed

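The table deposited by the authors gives, per the file headers, a scaled coverage signal of IP and input for each window, the gene median of each, and a log2 window score. Per the submitters' processing notes, reads were mapped with TopHat 1.1.3 to hg19. For the coverage program, its scaling factor and the annotation no name is given in the sources used here. Recomputed scores differed from the deposited ones by at most 1.6e-14. The values amount to about 5.69e+07 reads in the IP and 5.03e+07 in the input, and the intervals cover counting error only.

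For each gene name the listing with most windows was kept. Gene names, classes, lengths, strands and overlaps between genes came from RefSeq tables of GRCh38. No coordinates of the windows were used. Window number times 50 nt came within 100 nt of the RefSeq length for 164 of 250 matched genes (65.6%). Calculations used scipy 1.17.1, pandas 2.3.3 and numpy 2.4.6 under Python 3.11.15, and figures used matplotlib 3.10.9. The region call was also run on simulated counts drawn independently for each window. The windows here overlap, so that run does not measure the error of these calls. Binomial intervals are exact (Clopper-Pearson).

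Genes named are the 15 highest gene-level scores with a region of 3 or more windows, the 8 largest enriched shares, the 8 lowest scores of protein-coding genes at a mean input of 5, the 6 highest inputs, the 8 highest gene-wide ratios, and from each list the 2 highest and 1 lowest, or all of up to 5. Other named genes are examples chosen after their values were seen. Members, lists and rules were chosen with earlier results of these data known. No window sequence is printed.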

Additional observations from a re-analysis of the deposited data

How the results depend on the processing

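With the settings of the report, 43.0% of genes had a region, 7.63% of windows were enriched, the median gene-level score was 1.75 and the median gene-wide log2 ratio 0.13. On the same settings 68.3% of enriched windows in the 126 oriented genes lay upstream of the midpoint, 72.3% of protein-coding genes and 15.4% of pseudogenes had a region, and so did 35 genes of the family lists. No alternative changed the sign of a median. The excess of enriched windows upstream of the midpoint was lost at a mean input of at least 5, and in protein-coding genes it was turned there, to 37.4% upstream against 67.8%. Values that left their intervals, or moved a count by over 1.5 times, were as follows. At a threshold of 1, 67.9% of genes, 92.2% of protein-coding genes and 44.0% of pseudogenes had a region, 16.5% of windows were enriched and 64.1% of these lay upstream. At a threshold of 3 the shares were 24.5% of genes, 45.4% of protein-coding genes, 5.49% of pseudogenes and 3.50% of windows, with 72.5% upstream and 23 list genes. Runs of at least 4 windows left 30.0% of genes, 56.0% of protein-coding genes and 6.59% of pseudogenes. A pseudocount of 0.1 gave 50.3% of genes, 30.8% of pseudogenes, 9.31% of windows and a median score of 2.18. A pseudocount of 5 gave 5.45% of windows, a median score of 1.34, a median gene-wide ratio of 0.061 and 65.1% upstream. Without centring on the gene medians, 52.4% of genes, 85.8% of protein-coding genes and 16.5% of windows were called, the median score was 2.39 and 57.2% lay upstream. A mean input of at least 5 gave 35.8% of genes, 64.0% of protein-coding genes, 7.50% of pseudogenes, 6.22% of windows, 14 list genes and 50% upstream. Genes of 40 or more windows gave 61.2% of genes, 37.9% of pseudogenes, 8.83% of windows, medians of 2.52 and 0.33, 23 list genes and 77.8% upstream. Protein-coding genes alone gave 72.3% of genes, 12.2% of windows and medians of 2.98 and 1.12. Genes that overlap no other RefSeq gene, chosen as an alternative after seeing the data, gave 52.8% of genes, 9.04% of windows, medians of 2.27 and 0.77, 22 list genes and 63.7% upstream. With each gene counted equally 53.6% lay upstream. Fewer genes enter the last 5 of these settings by construction or weight, and the cause of the other shifts was not tested. Alternatives for the class shares, the family lists and single genes were also added after seeing the data. Taking the gene median over the kept listing alone, or leaving out the mitochondrial genes, moved none of these values out of its interval. Of 85 named genes, 2 changed sign without centring, H3F3C at -0.20 and a clone-named entry of very high input at -0.050, and 13 gained a region. No paired analysis was possible because each side has a single library. For the same reason no replicate could be left out.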
